A study of Sus scrofa with 19 samples.

Results

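Expression of the ATF4 arm of the integrated stress response was examined in porcine myocardium through 10 listed genes: ATF4, ATF5, DDIT3, TRIB3, ASNS, CHAC1, PSAT1, PHGDH, SESN2 and MTHFD2. They comprise ATF4 itself, a related factor and textbook target genes of the response. Of these 10 genes, 9 were found by symbol in the expression table of the authors and mapped by Ensembl ID to the count files, which hold 25879 genes. DDIT3 was not found by symbol and was not analysed here. Counts were sufficient for a test in 8 of the 9 genes, among 13552 genes tested in all, and CHAC1 fell below the low-count filter. RNA-seq was done on myocardium of 19 female large white pigs, with 1 library per pig. The DOX group (n = 5) received doxorubicin, an anthracycline, and the MYO group (n = 5) Myocet, its liposome-encapsulated form, with 3 cycles of 60 mg/m2 each, and tissue came from the anterior wall 3 months after the first injection. The RemoLV group (n = 3) had a 90 min percutaneous coronary occlusion followed by reperfusion, and the posterior wall, remote from the infarct, was sampled after 6 months. The Hyper group (n = 3) had an artificial stenosis of the aortic isthmus and was sampled at the anterior wall 6 months after stent implantation. The Control group (n = 3) is described as sham-operated in the sample descriptions and as untreated in the methods of the study, and its anterior wall was sampled at 6 months. The DOX and MYO data were taken by the study from earlier work, and the labels name no sequencing batch. In comparisons of DOX and MYO with the other groups, drug treatment cannot be told apart from follow-up time (3 against 6 months). Nor can it be told apart from any difference between that work and the rest of the study.

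In the integrated stress response, kinases that sense amino acid shortage, misfolded protein, mitochondrial damage or double-stranded RNA phosphorylate the initiation factor eIF2, which lowers translation in general and raises translation of ATF4. The transcription factor ATF4 binds C/EBP-ATF response elements and induces genes for amino acid synthesis and transport, tRNA charging and redox balance, and also genes that end the response or lead to cell death. In the heart this programme is known from mitochondrial cardiomyopathies, ischaemia and anthracycline exposure. The mRNA level of ATF4 does not report its translation, which was not measured.

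Sample names differ between the 2 kinds of deposited file, and this bears on every comparison below. In 8 of 19 columns of the authors' table, the identical library (Spearman correlation 1.0, next best file at most 0.992) is a count file of another group: the libraries labelled Control in the count files are named RemoLV in the table and vice versa, and 1 DOX and 1 MYO library are exchanged. The names of the count files were used here (file labels), and the names in the table (table names) served as an alternative. The libraries labelled RemoLV did not have the ventricular marker pattern of their label. The ventricular light chain MYL2 was at 18.6 to 115 CPM (counts scaled to a common effective library size) in them and at 8975 to 18080 CPM in all other libraries, and the atrial light chain MYL4 was at 6029 to 8130 CPM in them and at 21.9 CPM or less elsewhere. Total counts per library were between 9527710 and 20370209. In bulk tissue, fewer cells of a type and less RNA per cell cannot be told apart.

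Upstream sequence is shown for CHAC1 and SESN2, the genes whose levels varied most among the Control pigs. CHAC1 degrades glutathione and is a textbook direct target of ATF4. The 250 bases before its annotated start, from RefSeq on Sscrofa11.1 at chr1:130363333-130363582 on the minus strand, are given 5′ to 3′, with the letters that match the response element TGATGNAA on the opposite strand in capitals.
CHAC1: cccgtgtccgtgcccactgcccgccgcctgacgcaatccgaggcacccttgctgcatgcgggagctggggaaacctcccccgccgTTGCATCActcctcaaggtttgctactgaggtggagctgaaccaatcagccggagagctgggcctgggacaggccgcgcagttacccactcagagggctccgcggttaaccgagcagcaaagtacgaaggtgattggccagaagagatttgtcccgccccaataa
The match lay 165 to 158 bases upstream of the start, at chr1:130363490-130363497. SESN2, a stress-induced inhibitor of mTORC1, had no match in the 250 bases before its gene start, but had one 59 to 52 bases before a later transcript start within the gene, at chr6:85324174-85324181 on the plus strand. This site is shown with 5 flanking bases on each side and the match in capitals.
SESN2: atagcTGATGCAAcagtg
The letters TGATGNAA, searched on both strands, occurred in the window of 1 of the 10 listed genes and in 470 of 19559 gene starts of the genome (2.4%). When any annotated transcript start was allowed, 2 of 10 listed genes and 791 of 19560 genes (4.04%) had a match. Neither the cAMP response element TGACGTCA (332 of 19559 windows, 1.7%) nor the endoplasmic reticulum stress response element (CCAAT and CCACG with 9 bases between them; 14 of 19559, 0.0716%) occurred in a window of the 10 genes. Matches are descriptions of letters in these windows, and binding was not measured.

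Levels of the stress-induced regulators split the Control group. ATF4 was at 442, 151 and 550.0 CPM in Control replicates 1, 2 and 3. It was at 342, 191, 206, 171 and 272 CPM in DOX replicates 1 to 5 and at 295, 228, 219.8, 209 and 203.5 CPM in MYO replicates 1 to 5. Thus, Control replicates 3 and 1 held the highest and second highest ATF4 levels of all 19 libraries, and Control replicate 2 the lowest. The RemoLV libraries lay close together at 193.5, 187 and 178 CPM, and the Hyper libraries at 206, 175 and 166 CPM. The order of group means was Control, DOX, MYO, RemoLV and Hyper, and among neighbours in this order only MYO and RemoLV had ranges that did not overlap.

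**Figure D1:**
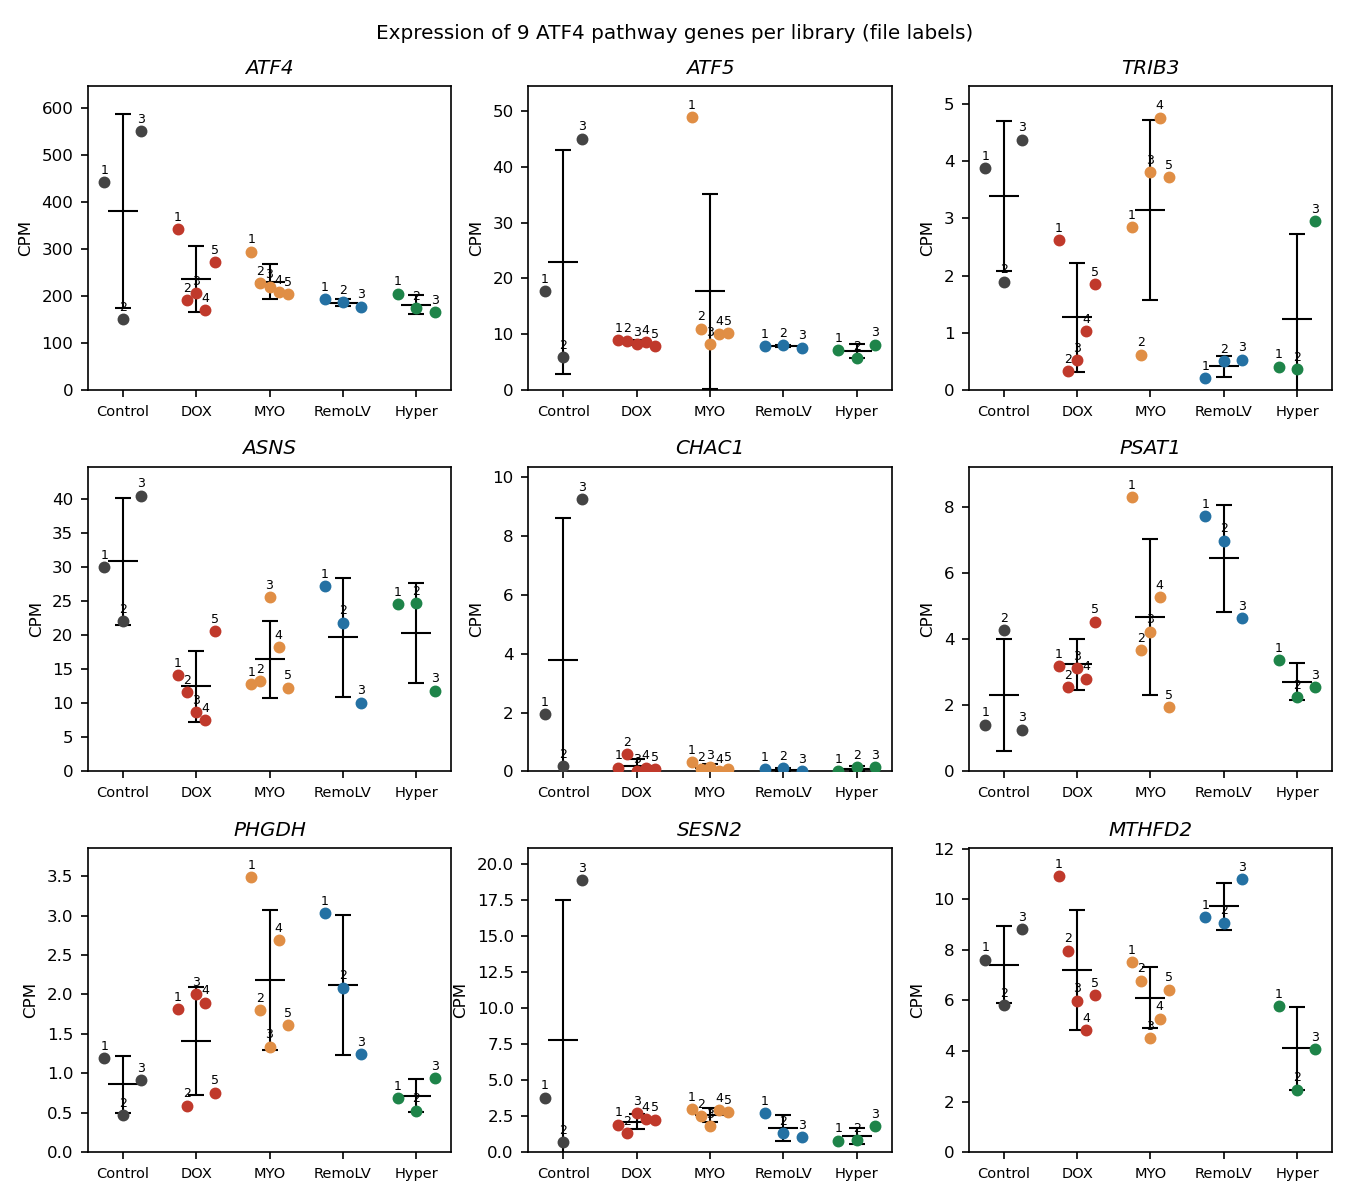
Level in CPM of the 9 analysed genes in each library, grouped by file label (points, with the replicate number; bars give mean ± SD; n = 3 for Control, RemoLV and Hyper and 5 for DOX and MYO; linear axes from 0). Control replicates 1 and 3 lie above Control replicate 2 for all of these genes except PSAT1, for which they lie below it.

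ATF5, a bZIP factor related to ATF4 that is also translated under eIF2 phosphorylation and takes part in the mitochondrial unfolded protein response, had the same split. It was at 17.8, 6.0 and 45.0 CPM in the Control libraries, against 7.9 to 8.93 CPM in DOX, 7.67 to 8.12 CPM in RemoLV and 5.72 to 8.18 CPM in Hyper. The MYO libraries were at 48.9, 11.0, 8.25, 10.1 and 10.2 CPM. MYO replicate 1 therefore held the highest ATF5 level of the series, above both high Control libraries, while the other 4 MYO libraries stood near the remaining groups. This MYO library is the one that the authors' table names as a DOX sample.

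TRIB3, a pseudokinase induced late in the response that restrains ATF4 and AKT, was low in all libraries. It was at 3.88, 1.9 and 4.37 CPM in Control and at 0.211, 0.508 and 0.535 CPM in RemoLV, so that these groups did not overlap. It was at 2.62, 0.339, 0.533, 1.04 and 1.85 CPM in DOX, at 2.85, 0.624, 3.81, 4.76 and 3.72 CPM in MYO and at 0.412, 0.376 and 2.95 CPM in Hyper. The MYO range of TRIB3 thus enclosed the Control range, and 1 Hyper library stood apart from the other 2.

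The effector genes CHAC1 and SESN2 had their highest levels in the same pigs as ATF4. CHAC1 gave 26, 3 and 131 counts in Control replicates 1, 2 and 3, that is 1.94, 0.178 and 9.24 CPM. The other 16 libraries gave between 0 and 7 counts. Only Control replicates 1 and 3 rose clearly above this range, and Control replicate 2 lay within it. SESN2 was at 3.81, 0.713 and 18.9 CPM in Control, with the lowest and the 2 highest values of the 19 libraries in this group. It was at 1.36 to 2.73 CPM in DOX, 1.83 to 3.01 CPM in MYO, 1.07 to 2.75 CPM in RemoLV and 0.825 to 1.81 CPM in Hyper. All 16 of these values lay between Control replicate 2 and Control replicate 1.

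ASNS, which makes asparagine from aspartate and glutamine, was at 29.9, 22.0 and 40.5 CPM in Control. In DOX it was at 14.2, 11.6, 8.67, 7.52 and 20.6 CPM, all below the lowest Control library. In MYO it was at 12.8, 13.2, 25.6, 18.3 and 12.3 CPM, in RemoLV at 27.2, 21.8 and 10.1 CPM and in Hyper at 24.5, 24.7 and 11.9 CPM. ASNS was thus highest in Control replicates 3 and 1, and Control replicate 2 held place 7 of 19.

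Among the serine and folate enzymes, PSAT1 had the reverse order in Control. PSAT1, which carries out the transamination step of serine synthesis, was at 1.42, 4.28 and 1.27 CPM in Control, and here replicates 1 and 3 were the lowest 2 of the 19 libraries. It was at 7.74, 6.99 and 4.64 CPM in RemoLV, above all Control libraries. The DOX libraries were at 3.18, 2.54, 3.13, 2.81 and 4.54 CPM, the MYO libraries at 8.32, 3.67, 4.23, 5.28 and 1.95 CPM and the Hyper libraries at 3.37, 2.26 and 2.55 CPM. PHGDH, the first enzyme of serine synthesis, was at 1.19, 0.475 and 0.917 CPM in Control, 0.687, 0.527 and 0.939 CPM in Hyper, 3.03, 2.09 and 1.25 CPM in RemoLV, 3.49, 1.8, 1.34, 2.68 and 1.61 CPM in MYO and 1.81, 0.594, 2.0, 1.9 and 0.756 CPM in DOX. Every MYO and RemoLV library was therefore above every Control and Hyper library, and Control replicate 2 was the lowest of the 19 libraries, as for ATF4. MTHFD2, a mitochondrial folate enzyme, was at 9.29, 9.08 and 10.8 CPM in RemoLV, 7.61, 5.82 and 8.82 CPM in Control and 5.77, 2.48 and 4.09 CPM in Hyper. These 3 groups did not overlap for MTHFD2. Control replicate 2 was again the lowest of its group, and the DOX libraries ranged from 4.83 to 10.9 CPM and the MYO libraries from 4.51 to 7.53 CPM.

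The spread within Control was quantified as the SD of log2(CPM + 0.5), a scale that compresses low levels. It was 2.0 for SESN2 and 1.92 for CHAC1, each larger than in 99.8% of tested genes. It was 1.4 for ATF5 (99.3%) and 0.997 for ATF4 (97.5%), against a median of 0.257 over all tested genes. PSAT1 followed with 0.796 (94.7%), whereas TRIB3 (0.551), ASNS (0.431), PHGDH (0.407) and MTHFD2 (0.284) were nearer to the median. The same genes were not variable in every group. The SD of ATF5 was 0.0396 in RemoLV and 0.071 in DOX but 1.02 in MYO, where 1 library was high, and that of ATF4 was 0.0617 in RemoLV and 0.16 in Hyper. TRIB3 had its widest spread in Hyper (1.13).

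**Figure D2:**
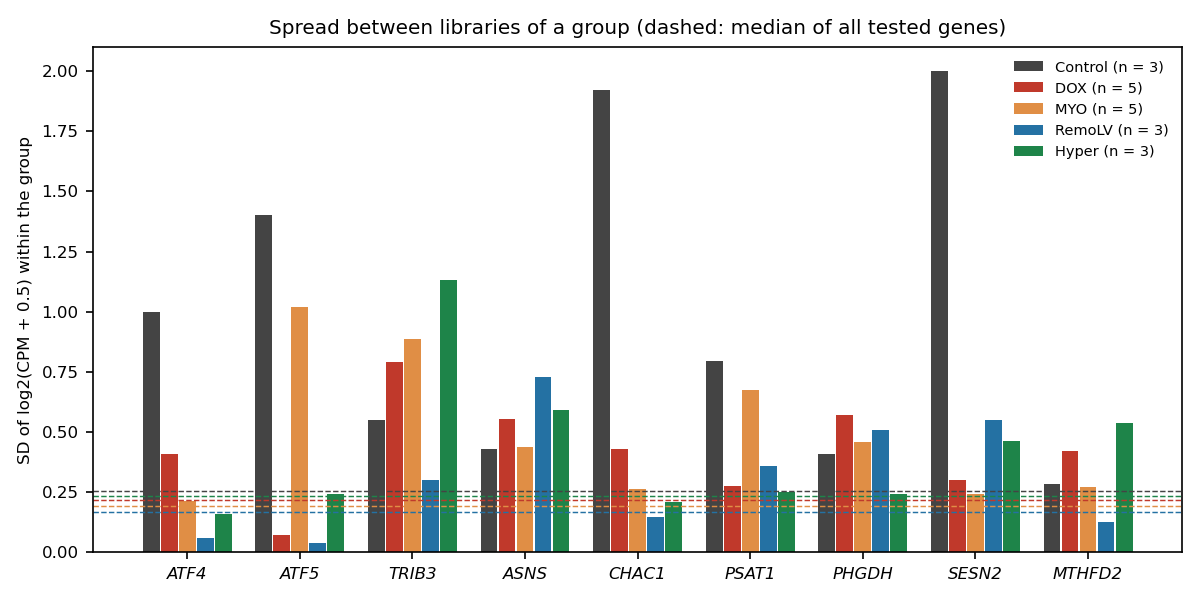
Standard deviation of log2(CPM + 0.5) between the libraries of each group for the 9 genes (bars start at 0), with the median over all tested genes of each group as dashed lines. The Control bars of SESN2, CHAC1, ATF5 and ATF4 are 2.0, 1.92, 1.4 and 0.997, against a median of 0.257.

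Blood markers, ventricular markers and library composition moved with this split. The hemoglobin gene HBB was at 337 and 325 CPM in Control replicates 1 and 3 and at 35.1 CPM in replicate 2, with 8.4 to 189 CPM in the other 16 libraries. Of the 6 blood cell markers 5 were found, and their summed level was 355, 36.7 and 342 CPM in Control replicates 1, 2 and 3, while SLC4A1 was at 3 counts or fewer in each. The summed level of the ventricular cardiomyocyte markers (5 of 6 found) was 69390 and 74540 CPM in Control replicates 1 and 3, the highest of the series, and 50050 CPM in replicate 2. The TMM scaling factors were 0.735 and 0.696 in Control replicates 1 and 3, the lowest of the series, and 0.965 in replicate 2. Their part in the levels of the stress response genes was not tested.

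Whether the response genes differed between each model and Control was tested in edgeR (quasi-likelihood test, p-values adjusted after Benjamini-Hochberg over all tested genes), with a call at an adjusted p of at most 0.05. Overlap of ranges between groups is stated below for single genes, and its share over all tested genes is not given. In DOX vs. Control, 3 of 8 genes were called, all lower, where 42.1% of all tested genes were called and 21.1% were called lower. ASNS fell (log2 fold change -1.30 ± 0.35, SE; edgeR adjusted p = 0.00667; lower than the Control mean in 5 of 5 libraries), as did SESN2 (-1.86 ± 0.59, edgeR adjusted p = 0.0168) and ATF5 (-1.42 ± 0.53, edgeR adjusted p = 0.0376). ATF4 missed the threshold (-0.69 ± 0.28, edgeR adjusted p = 0.0559), but was called by DESeq2 (-0.71, DESeq2 adjusted p = 0.0338). Of the marker lists, 4 of 4 tested blood markers were called lower in DOX, and 5 of 8 macrophage and leukocyte markers (1 lower), 3 of 5 proliferation markers and 2 of 6 atrial markers higher, and their part in the result was not tested. The median log2 fold change of the 8 genes was -1.0, beside 0.03 over all tested genes. Of these 3 calls, ASNS alone rested on groups that did not overlap. With table names 0 of 8 genes and 29.6% of all tested genes were called, and SESN2 (0.39) and ATF5 (1.07) had the opposite sign.

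In MYO vs. Control, 4 of 8 genes were called, 3 of them lower, against 42.4% of all tested genes in either direction and 21.7% lower. ATF4 (-0.72 ± 0.28, edgeR adjusted p = 0.0453), ASNS (-0.90 ± 0.35, edgeR adjusted p = 0.0451) and SESN2 (-1.57 ± 0.59, edgeR adjusted p = 0.0376) fell, and each of them overlapped between the groups. PHGDH rose (1.35 ± 0.46, edgeR adjusted p = 0.0263) without overlap. PSAT1 was not called by edgeR (0.99 ± 0.42, edgeR adjusted p = 0.0634) and was called by DESeq2 (0.98, DESeq2 adjusted p = 0.0429). The median of the 8 genes was -0.32, beside 0.02 over all tested genes. Of the marker lists, 2 of 6 tested atrial and 2 of 5 proliferation markers were called higher in MYO, and 1 of 4 blood markers lower. Of 8 macrophage and leukocyte markers, 1 was higher and 2 lower, and the part of these markers in the result was not tested. With table names 2 of 8 genes and 29.2% of all tested genes were called, and ATF4 (0.28), SESN2 (0.51) and PHGDH (-0.38) had the opposite sign. The number called was 0 without MYO replicate 4 (37.7% of all tested genes), 1 without MYO replicate 2 (39.5%) and 2 without any other MYO library (38.9% to 40.6%) or without Control replicate 1 (34.8%).

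In RemoLV vs. Control, 6 of 8 genes were called, 4 of them lower, against 47.2% of all tested genes in either direction and 24.0% lower. TRIB3 (-2.99 ± 0.86, edgeR adjusted p = 0.00835) and SESN2 (-2.16 ± 0.70, edgeR adjusted p = 0.0172) fell past the absolute log2 fold change of 2 that the study set for differentially expressed genes, as did 6.35% of all tested genes in either direction. ATF4 (-1.03 ± 0.32, edgeR adjusted p = 0.0135) and ATF5 (-1.53 ± 0.62, edgeR adjusted p = 0.049) fell by less, and PSAT1 (1.46 ± 0.45, edgeR adjusted p = 0.0134) and PHGDH (1.32 ± 0.50, edgeR adjusted p = 0.0382) rose. The libraries labelled RemoLV carry the atrial marker pattern given above, so that heart region and group cannot be told apart in this comparison. The 8 fibroblast markers summed to 11030 to 12650 CPM in RemoLV (6 called higher), 4912 to 7291 CPM in DOX (3 called higher), 4706 to 6817 CPM in MYO (3 called higher, 1 lower) and 2154 to 3556 CPM in Control, and their part in the comparisons with Control was not tested. With table names, the 2 groups exchange their libraries and each of these 6 signs turns. Without RemoLV replicate 2, 3 of the 8 genes and 41.3% of all tested genes were called.

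In Hyper vs. Control, 0 of 8 genes were called by edgeR, as were 0% of all tested genes. At an unadjusted p under 0.05, 4 of 8 genes and 17.8% of all tested genes passed, and DESeq2 called 2 of the 8 and 2.3% of all tested genes. SESN2 (-2.74 ± 0.73, edgeR adjusted p = 0.127; DESeq2 adjusted p = 0.00937) and ATF4 (-1.06 ± 0.32, edgeR adjusted p = 0.14; DESeq2 adjusted p = 0.0422) were these 2. The others past the unadjusted threshold were ATF5 (-1.70 ± 0.62, edgeR unadjusted p = 0.0133) and MTHFD2 (-0.84 ± 0.30, edgeR unadjusted p = 0.0124). MTHFD2 did not overlap between Hyper and Control. Without Hyper replicate 1, edgeR called MTHFD2 alone of the 8, and 5.6% of all tested genes. With table names SESN2 was at -0.57, ATF4 at -0.03 and ATF5 at -0.17, and PSAT1, PHGDH and MTHFD2 were called, 3 of 8 beside 35.8% of all tested genes.

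**Figure D3:**
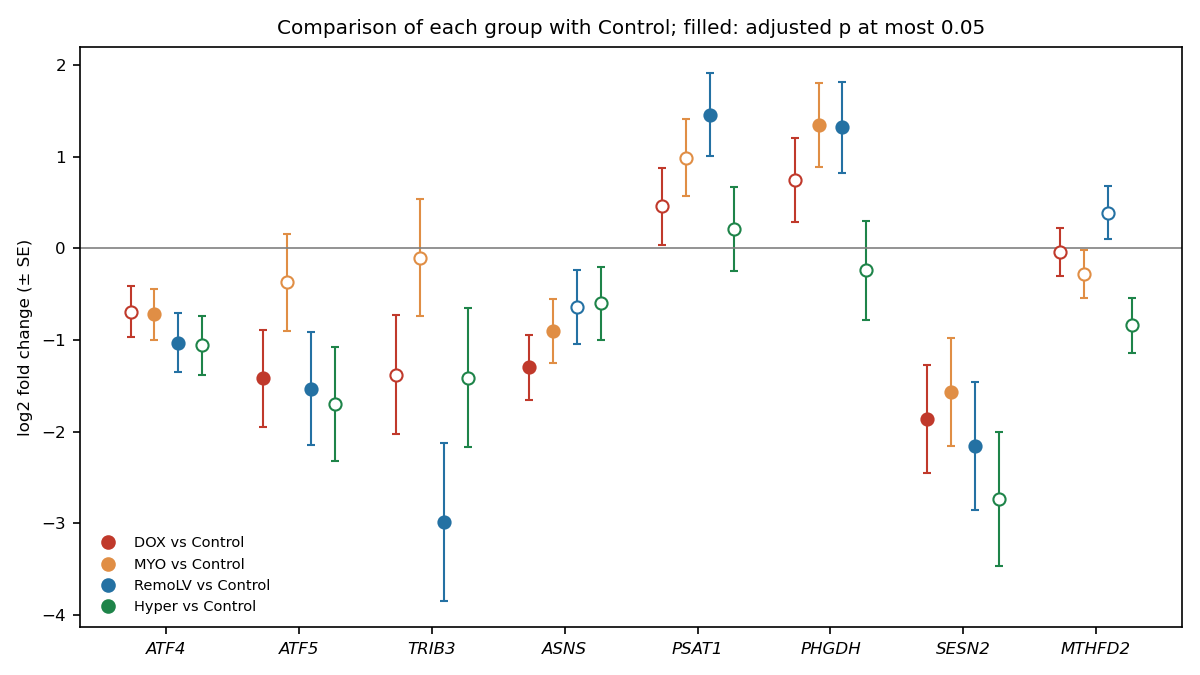
Log2 fold change (± SE) of the 8 tested genes in each comparison with Control, which share the same 3 Control libraries; filled points have an edgeR adjusted p of at most 0.05. SESN2 lies between -1.57 and -2.74 and ATF4 between -0.69 and -1.06, whereas PHGDH and PSAT1 lie above 0 in all comparisons except PHGDH in Hyper (-0.24).

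For CHAC1, no test was made in the main analysis. With no low-count filter its log2 fold change was -4.38 (DOX), -4.84 (MYO), -5.63 (RemoLV) and -5.20 (Hyper), each against Control, on counts of which 131 of the 160 in Control came from replicate 3. These values rest on Control replicates 1 and 3, in which CHAC1 was high, and no test is drawn from them.

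The calls depended on single Control libraries. Without Control replicate 3, the number of called genes among the 8 was 1 in RemoLV and 0 in each other comparison, while 27.4%, 28.1%, 35.7% and 0% of all tested genes were called. TRIB3 in RemoLV was the remaining call (-2.76, edgeR adjusted p = 0.0287). SESN2 moved from -1.86 to -0.06 (DOX), from -1.57 to 0.23 (MYO), from -2.16 to -0.36 (RemoLV) and from -2.74 to -0.93 (Hyper). ATF5 moved to -0.47 in DOX and to 0.58 in MYO. Without Control replicate 2, in contrast, 5 of the 8 genes were called in DOX and in RemoLV and 4 in MYO and in Hyper, where 44.7%, 52.8%, 45.8% and 18.4% of all tested genes were called. CHAC1 passed the filter in this setting only through the 2 Control libraries in which it was high and is left out of these counts. ATF4 was then at -1.07 in DOX (edgeR adjusted p = 0.000457), -1.11 in MYO (edgeR adjusted p = 0.000323), -1.42 in RemoLV (edgeR adjusted p = 6.75e-05) and -1.45 in Hyper (edgeR adjusted p = 0.000726). PSAT1 was at 1.26 (DOX), 1.79 (MYO) and 2.26 (RemoLV), each of them called. Without Control replicate 1, ATF4 was called in RemoLV (-0.92, edgeR adjusted p = 0.0492) and in no other comparison with Control.

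**Figure D4:**
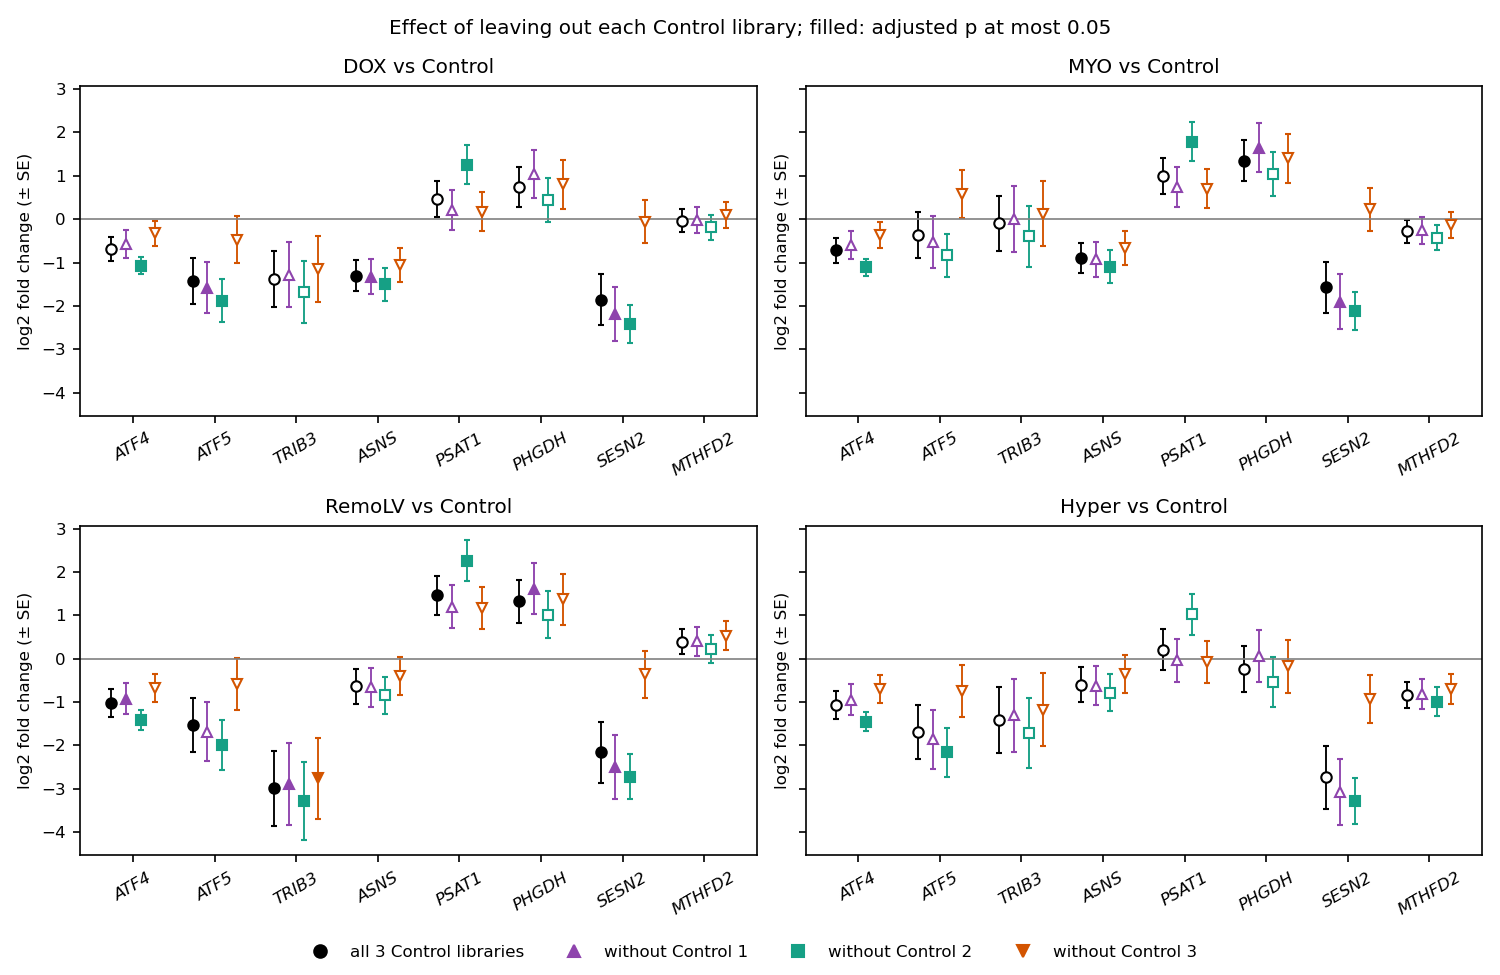
Log2 fold change (± SE) of the 8 tested genes against Control with all 3 Control libraries and with each of them left out; filled symbols have an edgeR adjusted p of at most 0.05. Leaving out Control replicate 3 brings SESN2 to between -0.93 and 0.23, and leaving out Control replicate 2 brings ATF4 to between -1.07 and -1.45.

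The remaining comparisons did not use Control. In DOX vs. MYO, 0 of 8 genes and 0% of all tested genes were called by edgeR, and DESeq2 also called 0 of 8. At an unadjusted p under 0.05, ATF5 (-1.05 ± 0.48, edgeR unadjusted p = 0.0397) and TRIB3 (-1.28 ± 0.59, edgeR unadjusted p = 0.0434) passed, 2 of 8 beside 7.08% of all tested genes. Without MYO replicate 1, the high library, the ATF5 value was -0.22, and with table names it was 0.81. ATF4 was at 0.03 ± 0.25 between the drug forms.

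In RemoLV vs. Hyper, 3 of 8 genes were called, all higher in RemoLV, against 35.6% of all tested genes in either direction and 17.0% higher. They were MTHFD2 (1.23 ± 0.30, edgeR adjusted p = 0.00398), PHGDH (1.55 ± 0.51, edgeR adjusted p = 0.0237) and PSAT1 (1.25 ± 0.45, edgeR adjusted p = 0.0377). None of the 3 overlapped between these groups of 3 libraries each, and the share of all tested genes without overlap is not given here. Of the 19 further serine and one-carbon genes tested, 6 were higher and 7 lower in this comparison, with a median log2 fold change of -0.02 beside 0.01 over all tested genes. ATF4 (0.03 ± 0.32) and SESN2 (0.57 ± 0.75) were not called. Heart region and group cannot be told apart here either, since 5 of 5 tested ventricular markers were lower and 6 of 6 tested atrial markers higher in RemoLV. The 8 fibroblast markers summed to 11030 to 12650 CPM in RemoLV and to 1611 to 3993 CPM in Hyper, with 6 of 8 called higher, and their part in the result was not tested. With table names, in which the libraries labelled Control take the place of RemoLV, 0 of 8 genes and 0% of all tested genes were called. Without RemoLV replicate 1, Hyper replicate 1 or Hyper replicate 2 the number was 1, beside 28.9% to 29.8% of all tested genes. In DOX and MYO together vs. Hyper, PHGDH (1.28 ± 0.44, edgeR adjusted p = 0.0323) and MTHFD2 (0.68 ± 0.25, edgeR adjusted p = 0.0476) were higher, 2 of 8 genes against 32.6% of all tested genes in either direction and 15.8% higher, and both overlapped between the groups. In the same direction, 4 of 8 tested fibroblast, 3 of 5 endothelial, 2 of 6 atrial and 3 of 5 proliferation markers were called higher. Of 8 macrophage and leukocyte markers 3 were higher and 1 lower, and of 6 smooth muscle and pericyte markers 2 were higher and 1 lower. The part of these markers in the result was not tested. Without Hyper replicate 2 none of the 8 response genes was called, beside 23.4% of all tested genes. Without Hyper replicate 1 (18.3% of all tested genes), DOX replicate 1 or 2 or any MYO library except replicate 3 (30.9% to 33.0%) the number was 1.

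Of 34 tested genes of a list of 37 further targets, 3 were higher and 12 lower in DOX vs. Control, 2 higher and 12 lower in MYO, 2 higher and 17 lower in RemoLV, and none was called in Hyper, where 16 passed an unadjusted p under 0.05. The shares over all tested genes were 42.1%, 42.4%, 47.2% and 0%, and 17.8% at the unadjusted p in Hyper, and the shares called lower were 21.1%, 21.7% and 24.0% in the first 3. Their median log2 fold changes were -0.46, -0.38, -0.65 and -0.52, beside 0.03, 0.02, 0.02 and 0.01 over all tested genes. CEBPG, the bZIP partner with which ATF4 dimerizes, was at 48.8, 22.1 and 84.5 CPM in Control and at 16.6 to 23.4 CPM in the other 16 libraries. It fell in DOX (-1.35 ± 0.25, edgeR adjusted p = 0.000398), MYO (-1.35 ± 0.25, edgeR adjusted p = 0.000404) and RemoLV (-1.37 ± 0.29, edgeR adjusted p = 0.000859). The asparaginyl-tRNA synthetase NARS1 fell in DOX (-0.83 ± 0.13, edgeR adjusted p = 0.00011), MYO (-0.83 ± 0.13, edgeR adjusted p = 0.000107) and RemoLV (-0.96 ± 0.15, edgeR adjusted p = 6.43e-05). CEBPG and NARS1 were still called lower in these 3 comparisons without Control replicate 3, at -0.80, -0.80 and -0.82 for CEBPG and -0.60, -0.60 and -0.74 for NARS1. With table names, however, CEBPG was at 0.05, -0.01 and 1.37 and NARS1 at 0.18, 0.08 and 0.96, and both were called in RemoLV alone. Of the list, 7 genes were then higher and 1 lower in DOX, 5 and 2 in MYO and 17 and 2 in RemoLV, beside 29.6%, 29.2% and 47.2% of all tested genes in either direction. GADD45A, a growth arrest gene, fell in RemoLV (-2.37 ± 0.35, edgeR adjusted p = 3.6e-05), which turns to 2.37 with table names.

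Among the amino acid transporters of this list, chosen after their values were seen, SLC38A2 was at 643, 169 and 761 CPM and SLC1A4 at 40.2, 9.5 and 92.2 CPM in Control replicates 1, 2 and 3. The alanyl-tRNA synthetase AARS1 was at 190.5, 81.2 and 314 CPM. All 3 genes were thus high in Control replicates 1 and 3, and replicate 2 lay within the range of the other groups for SLC38A2 (129 to 519 CPM), SLC1A4 (4.64 to 29.1 CPM) and AARS1 (60.2 to 144 CPM). Over the 34 tested genes of the list, Control replicates 1 and 3 were both above replicate 2 in 27 (79.4%) and both below it in 6, beside 40.6% and 42.3% of all tested genes. In the lists given below, the share above was 81.8% for ATF6 and XBP1 genes and 72.7% for mitochondrial chaperones and proteases. It was 60.0% for bZIP factors, 52.6% for serine and one-carbon enzymes, 36.8% for the eIF2 list and 33.3% for relatives of the response genes. The split was thus not particular to ATF4 targets. Control replicates 1 and 3 were the 2 highest of the 19 libraries in 13 of the 34 (38.2%), beside 1356 of all 13552 tested genes. Without Control replicate 3, the number of called genes of the list fell from 15 to 4 in DOX, from 14 to 6 in MYO and from 19 to 13 in RemoLV, while the share over all tested genes went from 42.1% to 27.4%, from 42.4% to 28.1% and from 47.2% to 35.7%. Without Control replicate 2, it was 19 in DOX and in Hyper, 17 in MYO and 21 in RemoLV, beside 44.7%, 18.4%, 45.8% and 52.8% of all tested genes. FGF21 and GDF15, secreted markers of the response, were at 0.733 CPM or less in every library.

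**Figure D5:**
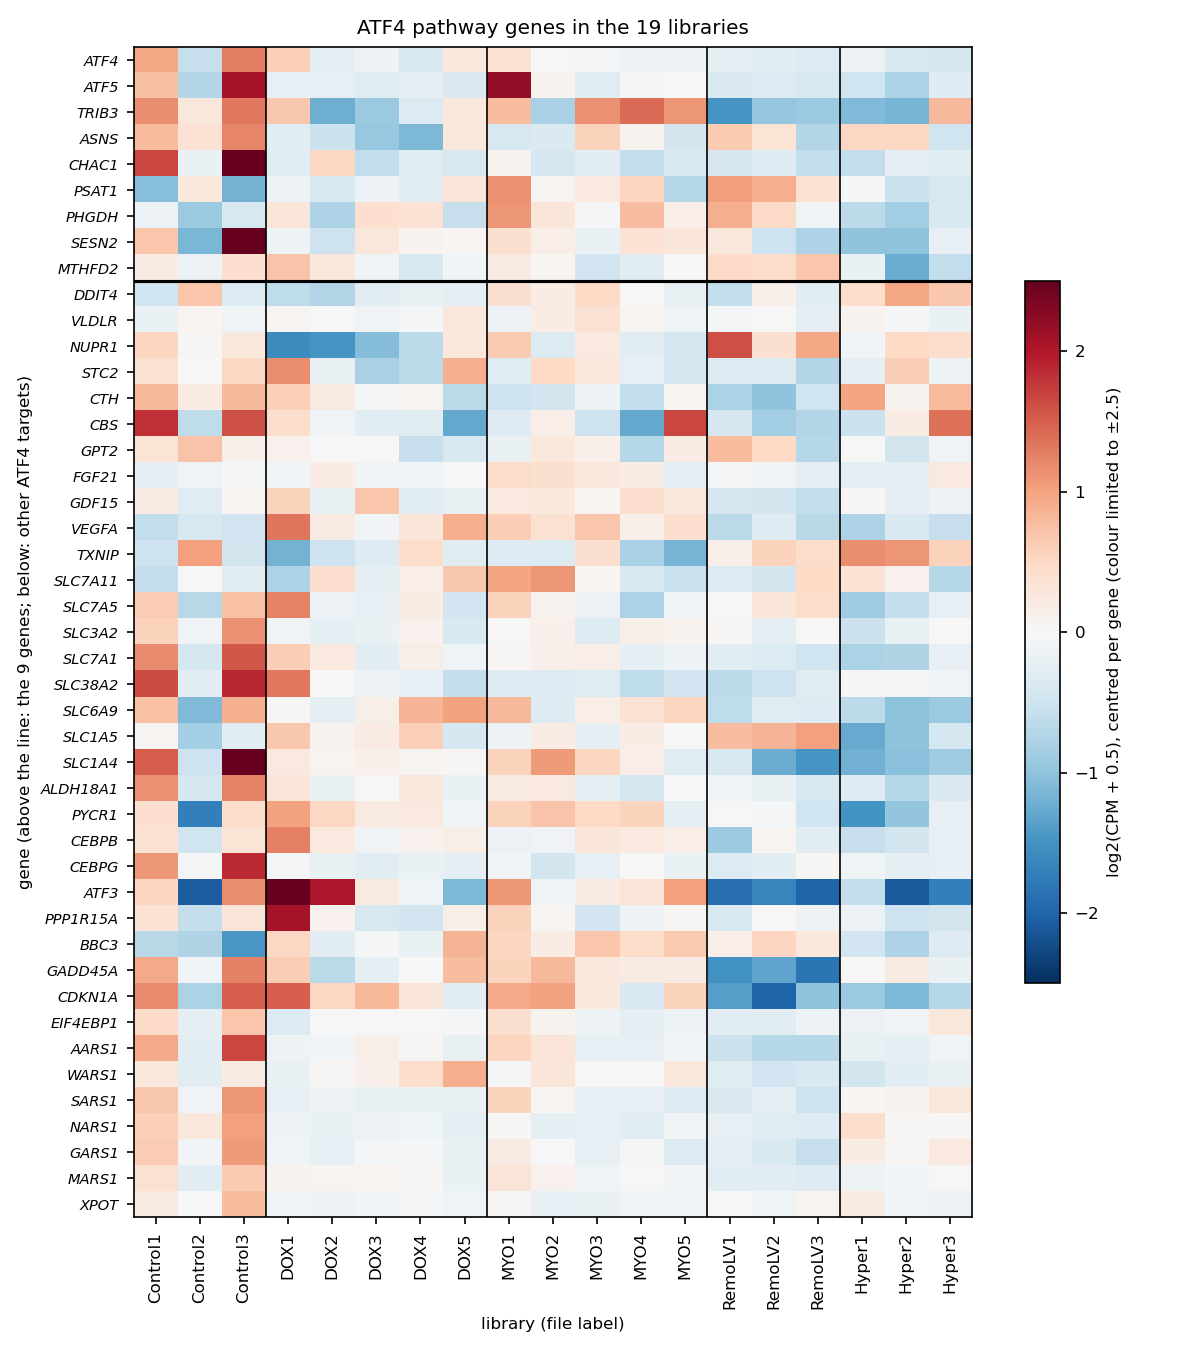
Log2(CPM + 0.5) of the 9 genes (above the line) and of the 36 other ATF4 targets found, centred per gene over the 19 libraries (red above, blue below the mean of the gene; colour limited to ±2.5). Control replicates 1 and 3 are red for ATF4, CHAC1, SESN2, SLC38A2, SLC1A4, CEBPG and AARS1, and Control replicate 2 is not.

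The DOX library with the highest ATF4 level, DOX replicate 1 at 342 CPM, also stood apart for other stress genes of the lists, named after their values were seen. ATF3 was at 2212 CPM in it and at 4.29 to 83.5 CPM in the other 18 libraries, FOS at 597 against 2.42 to 49.0 CPM, and PPP1R15A, which recruits the phosphatase of eIF2, at 240 against 37.1 to 85.1 CPM. CHAC1 (2 counts) and SESN2 (1.94 CPM) were not raised in this library.

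Genes that act upstream of ATF4 were tested as a list of 19 eIF2 kinases, eIF2 subunits and regulators. In DOX 0 were higher and 7 lower, in MYO 1 and 7, in RemoLV 0 and 6, and in Hyper 0 and 0, with 5 past an unadjusted p under 0.05. Over all tested genes, 21.1%, 21.7% and 24.0% were called lower in the first 3 comparisons and 42.1%, 42.4% and 47.2% in either direction, and 17.8% passed the unadjusted threshold in Hyper. The eIF2 subunit gene EIF2S3 fell in DOX (-1.60 ± 0.12, edgeR adjusted p = 5.06e-08) and MYO (-1.56 ± 0.12, edgeR adjusted p = 6.07e-08), from 130.0, 172 and 152 CPM in Control to 45.5 to 57.5 CPM in DOX and 48.5 to 56.6 CPM in MYO. EIF2S2 fell in DOX (-1.15 ± 0.11, edgeR adjusted p = 8.84e-07), MYO (-1.0 ± 0.11, edgeR adjusted p = 4.36e-06) and RemoLV (-1.27 ± 0.13, edgeR adjusted p = 9.14e-07), and EIF2S1 in RemoLV (-0.89 ± 0.11, edgeR adjusted p = 8.6e-06). With table names, EIF2S3 remained called lower in DOX (-1.0) and MYO (-0.95), whereas EIF2S2 was at 0.17 and 0.21 there, not called, and EIF2S2 (1.27) and EIF2S1 (0.89) turned in RemoLV. With file labels, these subunits were lower in every DOX and MYO library than in any Control library, replicate 2 included. The kinase gene EIF2AK3, chosen after its values were seen, encodes the endoplasmic reticulum sensor PERK and was at 21.2, 13.0 and 22.0 CPM in Control and at 10.8 to 17.1 CPM elsewhere, and it was called in no comparison.

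A list of bZIP factors, kin or partners of ATF4, had calls in both directions, and pairing with ATF4 is not claimed for each of them. Of 15 tested, 3 were higher and 3 lower in DOX, 1 and 6 in MYO, 1 and 4 in RemoLV and none in Hyper (3 at an unadjusted p under 0.05), beside 42.1%, 42.4%, 47.2% and 0% of all tested genes (17.8% at the unadjusted p in Hyper). ATF1 fell in DOX (-0.68 ± 0.16, edgeR adjusted p = 0.00263), MYO (-0.80 ± 0.16, edgeR adjusted p = 0.000813) and RemoLV (-0.87 ± 0.18, edgeR adjusted p = 0.000842), whereas CEBPA rose in RemoLV (2.83 ± 0.54, edgeR adjusted p = 0.000395). With table names ATF1 was at 0.21 (DOX), 0.05 (MYO) and 0.87 (RemoLV) and CEBPA at -2.83 in RemoLV. Of 19 tested further enzymes and carriers of serine and one-carbon metabolism, 4 were higher and 4 lower in DOX, 4 higher and 5 lower in MYO, 5 higher and 6 lower in RemoLV and none in Hyper (6 at an unadjusted p under 0.05), where the same shares apply. SFXN1, the mitochondrial serine carrier, rose in DOX (0.95 ± 0.13, edgeR adjusted p = 4.56e-05), MYO (0.94 ± 0.14, edgeR adjusted p = 4.61e-05) and RemoLV (1.17 ± 0.15, edgeR adjusted p = 7.54e-06). SFXN1 was even across the Control pigs (4.33, 4.28 and 4.66 CPM), with replicate 2 next to the other 2. With table names its values turned to -0.25 (DOX), -0.20 (MYO) and -1.17 (RemoLV), of which the last was called. Of the list, 3 were then higher and 1 lower in DOX, 4 and 1 in MYO and 6 and 5 in RemoLV, beside 29.6%, 29.2% and 47.2% of all tested genes in either direction.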

How the data were processed

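RNA-seq libraries of myocardium from 19 pigs were used, with 1 library per pig. The authors used STAR for alignment to Sscrofa11.1 and HTSeq 0.11.1 for strand-specific counting of reads per gene, and they deposited raw counts per library without normalization. Their expression table holds transformed log2 expression values, which the authors made with DESeq2, and was used here only for gene symbols and for matching sample names. Its columns of fold changes and adjusted p-values, made by the authors with DESeq2, were not used. In R 4.3.3, counts were scaled by TMM in edgeR 4.0.16, filtered by filterByExpr and tested with the quasi-likelihood test in 1 model of the 5 groups of the file labels, with Benjamini-Hochberg adjustment. CPM were computed from effective library sizes. Alternatives were RLE size factors, DESeq2 1.42.0, other low-count filters, a replicate block, fits of fewer groups, table names and leaving out each library. Those for the pathway lists were chosen after seeing the data. The members and lists of genes were chosen with earlier results of these data known. All members were named, and of each pathway list up to 2 genes with the lowest adjusted p among those called in each comparison with Control, apart from 1 gene that is not reported here. The fit was tested on simulated data with the same dispersion for all genes and no outlying library. That test does not cover a spread such as the one within Control. Promoter windows of 250 bases were read from the RefSeq annotation of Sscrofa11.1. Total counts of 9527710 to 20370209 per library (median 14527230) limit low genes such as CHAC1.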

Additional observations from a re-analysis of the deposited data

Results flagged for a closer look

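Within the DOX and MYO groups, 18 sets of 5 values were checked for a library far from the rest, and chance flags about 1 in 20. ATF4 in MYO replicate 1 was at 294.7 CPM, with the next MYO library at 228.1 CPM. ATF5 in the same library was at 48.88 CPM, with the next at 11.02 CPM. CHAC1 in DOX replicate 2 was at 0.5936 CPM (7 counts), with the next DOX library at 0.1248 CPM (2 counts). The Control group, with 3 libraries, was too small for this check.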

How the results depend on the processing

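Of the 8 tested genes, leaving out each library in turn gave a number of called genes of 0 to 5 in DOX vs. Control, 0 to 4 in MYO, 1 to 5 in RemoLV, 0 to 4 in Hyper, 0 to 0 in DOX vs. MYO, 1 to 3 in RemoLV vs. Hyper and 0 to 2 in DOX and MYO vs. Hyper. In this order, the share of all tested genes was 27.4% to 44.7%, 28.1% to 45.8%, 35.7% to 52.8%, 0% to 18.4%, 0%, 28.2% to 33.7% and 18.3% to 33.2%. With table names the number of called genes was 0 in DOX vs. Control, 2 in MYO, 3 in Hyper and 0 in RemoLV vs. Hyper. The shares of all tested genes were then 29.6%, 29.2%, 35.8% and 0%. Requiring 10 counts in every library gave 3 in RemoLV vs. Control, of 6 genes still tested, beside 49.2% of all genes tested then. TRIB3 and PHGDH did not pass that filter. Fitting only the groups compared gave 2 in MYO and 2 in RemoLV vs. Control, beside 40.9% and 39.1% of all tested genes. In DOX and MYO vs. Hyper the number was 1 with RLE size factors, with no filter, with 10 counts in every library and without the RemoLV libraries. The shares of all tested genes were 32.8%, 22.4%, 35.7% and 31.5% in this order. DESeq2 gave 2 in Hyper vs. Control, beside 2.3% of all tested genes. The cause was not tested. The replicate block gave 1 in MYO vs. Control in place of 4, beside 35.4% of all tested genes in place of 42.4%. Libraries of different groups that share a number correlated at -0.2461 to 0.2416 (median 0.0069, 32 pairs), so that the numbers do not pair the pigs. Signs turned with table names for ATF4 0.37, ATF5 1.07, TRIB3 1.81, PSAT1 -0.70, PHGDH -0.12 and SESN2 0.39 in DOX vs. Control, ATF4 0.28, ATF5 0.26, TRIB3 2.79, PSAT1 -0.72, PHGDH -0.38 and SESN2 0.51 in MYO vs. Control, ATF4 1.03, ATF5 1.53, TRIB3 2.99, ASNS 0.64, PSAT1 -1.46, PHGDH -1.32, SESN2 2.16 and MTHFD2 -0.39 in RemoLV vs. Control, ATF5 0.81, PSAT1 0.02 and PHGDH 0.26 in DOX vs. MYO, TRIB3 1.58, ASNS 0.04 and PSAT1 -1.25 in Hyper vs. Control and TRIB3 1.41, ASNS 0.60 and PSAT1 -0.21 in RemoLV vs. Hyper. Signs also turned for ASNS in RemoLV vs. Hyper with 10 counts in every library (0.00) and for MTHFD2 in DOX vs. Control with the replicate block (0.05). Leaving out 1 library turned signs within these ranges of log2 fold change: ATF4 -0.14 to 0.14 in DOX vs. MYO, ATF4 -0.03 to 0.12, TRIB3 -2.0 to 0.07, ASNS -0.34 to 0.26 in RemoLV vs. Hyper, ATF5 -1.21 to 0.58, TRIB3 -0.40 to 0.17, SESN2 -2.12 to 0.23 in MYO vs. Control, PSAT1 -0.08 to 1.02, PHGDH -0.54 to 0.06 in Hyper vs. Control and MTHFD2 -0.26 to 0.10 in DOX vs. Control. Of 56 fold changes each, 55 with RLE size factors and 52 with DESeq2 kept their direction and their side of the threshold. Depth limits TRIB3, PSAT1, PHGDH, SESN2 and CHAC1, which were near 1 CPM in some libraries.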

Other observations

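The ATF6 and XBP1 branch of the unfolded protein response acts beside ATF4. Of 22 tested genes of this branch, 2 were higher and 1 lower in DOX vs. Control, 2 and 3 in MYO, 1 and 7 in RemoLV and 0 and 0 in Hyper, where 4 passed an unadjusted p under 0.05, beside 42.1%, 42.4%, 47.2% and 0% of all tested genes called in these comparisons, and 17.8% past the unadjusted threshold in Hyper. The chaperone gene CANX fell in DOX (-0.56 ± 0.15, edgeR adjusted p = 0.00587) and RemoLV (-0.95 ± 0.17, edgeR adjusted p = 0.000203), HSP90B1 fell in RemoLV (-0.99 ± 0.19, edgeR adjusted p = 0.000474), and ATF6 fell in MYO (-0.43 ± 0.15, edgeR adjusted p = 0.0226). CRELD2 rose in DOX (0.66 ± 0.23, edgeR adjusted p = 0.0254) and MYO (0.69 ± 0.23, edgeR adjusted p = 0.0197), and was also called higher with table names (0.89 and 0.86). CANX turned with table names in DOX (0.34) and RemoLV (0.95) and HSP90B1 in RemoLV (0.99), while ATF6 in MYO was at -0.21 and not called. Of 11 tested mitochondrial chaperones and proteases, 0 were higher and 5 lower in DOX, 2 and 4 in MYO, 0 and 8 in RemoLV and 0 and 0 in Hyper (3 at an unadjusted p under 0.05), to be read against the same shares. With table names, 7 of the 11 were higher and 0 lower in DOX, 6 and 0 in MYO and 8 and 0 in RemoLV. The shares of all tested genes called in either direction were then 29.6%, 29.2% and 47.2%. HSPE1, the co-chaperone of HSP60, was at 329, 221 and 372 CPM in Control and at 91.5 to 96.7 CPM in RemoLV, and fell in DOX (-1.19 ± 0.13, edgeR adjusted p = 4.16e-06), MYO (-1.16 ± 0.13, edgeR adjusted p = 5.67e-06) and RemoLV (-1.71 ± 0.16, edgeR adjusted p = 2.54e-07), with table-name values of 0.52, 0.56 and 1.71, all called. The protease subunit gene CLPX fell in DOX (-0.59 ± 0.11, edgeR adjusted p = 0.000452) and MYO (-0.63 ± 0.11, edgeR adjusted p = 0.000265), and HSPA9 fell in RemoLV (-1.16 ± 0.13, edgeR adjusted p = 3.5e-06). With table names CLPX was at -0.10 and -0.11 in DOX and MYO, not called, and HSPA9 turned to 1.16 in RemoLV.

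Of 9 tested relatives of the response genes, 0 were higher and 1 lower in DOX, 0 and 2 in MYO, 1 and 1 in RemoLV and 0 and 0 in Hyper (2 at an unadjusted p under 0.05), to be read against the same shares. The lower gene in DOX and in RemoLV, and 1 of those in MYO, was CEBPG. It is also counted in the lists of further targets and of bZIP factors. The lists also share ATF3, CEBPB, PPP1R15A and MTHFD2L, so that their counts are not separate observations. CHAC2, a relative of CHAC1, fell in MYO (-0.76 ± 0.29, edgeR adjusted p = 0.0391). SESN3, a relative of SESN2, was at 6.64, 20.6 and 5.15 CPM in Control replicates 1, 2 and 3, so that its high library was the one with the lowest SESN2. It rose in RemoLV (1.63 ± 0.38, edgeR adjusted p = 0.00208), which turns to -1.63 with table names, where CHAC2 in MYO was at -0.31 and not called. SESN1, chosen after its values were seen, was at 69.0, 162 and 63.8 CPM in the same order.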
